A study of Mus musculus with 8 samples.

Results

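The general spliceosome, SR and hnRNP genes were compared between neural progenitor cells (NPC) and embryonic stem cells (ESC) of the mouse. Members were taken by name: genes that begin with Srsf, Hnrnp, Sf3a, Sf3b, Snrpa to Snrpg, Snrnp, Prpf, U2af or Lsm, with a number where the family numbers its genes, and without Snrpn. The rule found 87 genes among 21202 named genes, of which 83 have exon values, 85 have intron values and 81 have both. Hnrnpa0 and Sf3b5 have exon values only, and Hnrnpa1, Hnrnpk, Sf3b3 and U2af1l4 have intron values only. The NPC samples come from 1 clone differentiated from the hybrid ESC line F1-21.6, which the labels give a 129Sv-Cast/EiJ background. The ESC samples are that line itself, cultured with leukaemia inhibitory factor over feeder fibroblasts whose division had been stopped with mitomycin C. Each of the 2 cell types has 2 biological replicates, each with 2 technical libraries of total RNA without ribosomal RNA. Because all NPC samples share 1 clone, a difference of the clone and a difference of the cell type cannot be told apart.

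The spliceosome removes introns from pre-mRNA. It is built from small nuclear ribonucleoproteins (snRNPs), each an RNA wrapped in a ring of Sm or Lsm proteins with a few proteins of its own: U1 reads the start of the intron, U2 its branch site, and the U4/U6.U5 tri-snRNP brings in the parts that become the catalytic core. SR proteins mostly bind exons and help the spliceosome find splice sites, while hnRNP proteins coat the nascent transcript and often compete with them. Several SR and hnRNP genes carry alternative exons or introns whose use limits their own protein.

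Exon levels are RPKM (reads per kilobase of gene and per unit of sequencing depth) that the authors pooled by cell type, so they carry no replicate spread and the read depth behind them is unknown. Exon calls rest on the adjusted p-value of the authors' deposited table at 0.05, for genes averaging at least 1 RPKM over both cell types. Intron levels are RPKM per biological replicate, with 5669172 and 5065039 recovered intron reads in NPC replicates 1 and 2 and 5629017 and 6345506 in ESC replicates 1 and 2. The members had a median of 190 and 356 intron reads in the NPC replicates and 679 and 772 in the ESC replicates. NPC replicate 1 stands apart: 239 olfactory, vomeronasal and taste receptor genes, which neither cell type is known to use, had a median of 0.747 intron RPKM there, against 0.0828 in NPC replicate 2 and 0.0291 and 0 in the ESC replicates. Their exons (1463 genes) had a pooled median of 0.279 RPKM in NPC and 0 in ESC. The pooled exon values cannot be given without that replicate.

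Most spliceosome, SR and hnRNP genes were lower in NPC than in ESC. In the authors' deposited table, 57 of the 83 members fell, 4 rose and 22 did not pass, and the median of their log2 fold changes was -0.92. Of all 12509 genes tested by the authors' deposited table, 66.2% passed, 33.9% lower and 32.3% higher in NPC, and the median was -0.07. The members' RPKM summed to 9162 in NPC and 15259 in ESC. These are bulk samples, in which fewer cells of a type and less RNA per cell cannot be told apart. Among genes of high exon level the background also leaned to ESC. Of the 1208 genes that averaged 100 RPKM or more, 49.8% were lower in NPC with a median of -0.55 in the authors' deposited table, while 28 of 39 members were lower, none was higher, and their median was -1.01.

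**Figure D1:**
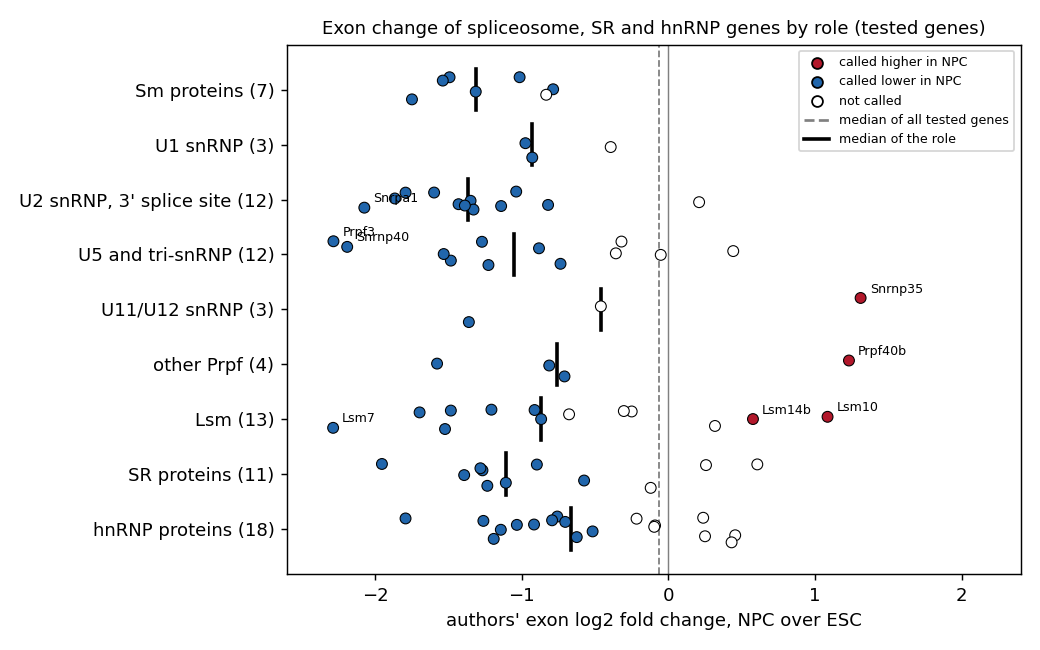
Each point is a gene placed by the authors' log2 fold change of exon level, NPC over ESC, in a row for its role with the number of genes in brackets; filled points passed the authors' test, bars mark the median of a role and the dashed line the median of all tested genes. Most points lie left of the dashed line in every role, and of the tested genes only Snrnp35, Prpf40b, Lsm10 and Lsm14b were called higher in NPC.

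The 7 Sm genes encode the ring that holds the RNA of the U1, U2, U4 and U5 snRNPs. All 7 had lower exon levels in NPC, and 6 of them fell in the authors' deposited table, with a median of -1.31. Snrpd2 was at 40.9 RPKM in NPC and 124 in ESC (log2 fold change -1.75 in the authors' deposited table), the lowest of the ring. Snrpb, which also gives the second Sm B form by alternative splicing, was at 120.4 RPKM in NPC and 191 in ESC, the mildest change of the ring in the authors' deposited table (-0.79). Snrpe, the most abundant Sm gene (here and below by the mean over both cell types) at 335 RPKM in NPC and 571 in ESC, did not pass in the authors' deposited table (-0.83, adjusted p = 0.327).

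Of the 3 U1 proteins, Snrpa and Snrpc fell in the authors' deposited table, to 66.5 RPKM in NPC against 120.4 in ESC and to 26.9 in NPC against 44.0 in ESC. Snrnp70, the U1 protein that SR proteins bind, was at 161 RPKM in NPC and 195 in ESC and did not pass in the authors' deposited table (-0.39, adjusted p = 0.202).

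The U2 snRNP and the factors that recognise the end of the intron had the lowest median of the roles, -1.37 in the authors' deposited table, with 11 of 12 genes lower. Snrpa1, which encodes the U2 A' protein, was at 85.5 RPKM in NPC and 325 in ESC (-2.07 in the authors' deposited table). Sf3a1, Sf3a2 and Sf3a3, the subunits of the SF3a complex that joins U2 to the branch site, fell together in the authors' deposited table, with log2 fold changes of -1.60, -1.87 and -1.43. Their pooled exon levels were 36.8 RPKM in NPC and 99.1 in ESC for Sf3a1, 5.13 in NPC and 16.9 in ESC for Sf3a2, and 90.4 in NPC and 217 in ESC for Sf3a3. Sf3b1, the large SF3b subunit that clasps the branch site, was at 199 RPKM in NPC and 369 in ESC (-1.04 in the authors' deposited table), and Sf3b2, the most abundant gene of this role, at 309 in NPC and 493 in ESC (-0.82). Both subunits of the U2AF heterodimer fell in the authors' deposited table, U2af2 to 41.5 RPKM in NPC against 97.9 in ESC and U2af1 to 3.79 in NPC against 11.04 in ESC. Sf3b6, whose protein touches the branch-site adenosine, did not pass and lay on the other side of 0 in the authors' deposited table, with 172 RPKM in NPC and 135 in ESC (0.21).

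Promoter sequence from RefSeq (GRCm38.p6, from 250 bases before to 50 after the start) was found for 74 of the 87 members, and the first listed start was used for the 14 with several. The letters CCGGAAG, a core that ETS family factors bind, were searched on both strands. They stood in 22 of the 74 members (29.7%), against 18.1% of 9455 promoters of genes tested for exons and 9.12% of all 27025 promoters. Of the other motifs searched on both strands, the GC box GGGCGG stood in 73.0% of members and 65.9% of tested genes, CCAAT in 45.9% and 38.9%, the E-box CACGTG in 10.8% and 10.6%, TATAAA in 9.46% and 6.64%, the NRF1 half-site GCGCATGC in 8.11% and 5.89%, the YY1 core AAGATGGC in 5.41% and 4.76%, and the CRE TGACGTCA in 2.7% and 3.32%. Between the 46 members called lower and the 24 tested and not called lower, CCGGAAG stood in 15 and 6, the GC box in 30 and 23, CCAAT in 19 and 12, the E-box in 5 and 3, TATAAA in 6 and 0, the NRF1 half-site in 2 and 3, the YY1 core in 2 and 2, and the CRE in 2 and 0. Over all 27025 promoters the GC box stood in 35.9%, CCAAT in 37.9%, the E-box in 7.24% and TATAAA in 14.2%. The NRF1 half-site stood there in 2.8%, the YY1 core in 2.88% and the CRE in 1.88%. A match is a description of letters and not a bound site. The stretches below run from 130 bases before the start to 20 after it, 5' to 3' along the gene, with CCGGAAG or its reverse complement in capitals. They show the 3 SF3a genes, which fell together, beside Srsf5, which did not pass, and Snrnp35, which rose, a choice made after the values were seen. Sf3a1 (chr11:4160224-4160373, + strand) has the motif 7 bases before the start, Sf3a2 (chr10:80798605-80798754, +) 76 before and Sf3a3 (chr4:124714731-124714880, +) 90 before. Srsf5 (chr12:80945369-80945518, +) has it 90 and 23 bases before the start, and Snrnp35 (chr5:124483025-124483174, +) has none.
Sf3a1: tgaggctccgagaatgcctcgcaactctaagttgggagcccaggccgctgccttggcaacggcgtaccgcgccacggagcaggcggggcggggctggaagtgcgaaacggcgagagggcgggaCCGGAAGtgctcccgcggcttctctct
Sf3a2: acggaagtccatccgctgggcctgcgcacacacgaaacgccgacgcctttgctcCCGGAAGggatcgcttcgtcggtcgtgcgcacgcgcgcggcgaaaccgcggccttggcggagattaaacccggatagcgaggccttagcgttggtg
Sf3a3: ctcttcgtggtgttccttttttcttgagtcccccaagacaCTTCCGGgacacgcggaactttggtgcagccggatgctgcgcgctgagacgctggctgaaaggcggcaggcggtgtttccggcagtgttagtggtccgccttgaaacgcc
Srsf5: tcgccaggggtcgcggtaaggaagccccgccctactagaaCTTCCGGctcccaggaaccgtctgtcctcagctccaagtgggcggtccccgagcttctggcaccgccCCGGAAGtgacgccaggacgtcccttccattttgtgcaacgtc
Snrnp35: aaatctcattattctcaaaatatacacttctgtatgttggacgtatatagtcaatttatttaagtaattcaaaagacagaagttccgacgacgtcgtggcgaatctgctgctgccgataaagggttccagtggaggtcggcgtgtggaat

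Of the 12 proteins of U5 and the tri-snRNP, 8 fell in the authors' deposited table and none rose, with a median of -1.06. Prpf3, a protein of the U4/U6 pair, was at 14.4 RPKM in NPC and 64.1 in ESC (-2.28 in the authors' deposited table), and Snrnp40, a U5 protein of WD repeats, at 38.4 in NPC and 163 in ESC (-2.19). Prpf8, the scaffold around the catalytic RNA, was at 93.8 RPKM in NPC and 252 in ESC, and Snrnp200, the helicase that unwinds U4 from U6, was the most abundant of this role at 154 in NPC and 332 in ESC. Both of these fell in the authors' deposited table, with log2 fold changes of -1.53 and -1.23. Prpf6, Prpf18, Prpf38b and Snrnp27 did not pass, and their log2 fold changes ran from -0.36 for Prpf38b to 0.44 for Snrnp27 in the authors' deposited table. Of the Prpf38 pair, Prpf38a fell to 66.2 RPKM in NPC against 110 in ESC, while Prpf38b was at 149 in NPC and 169 in ESC.

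Outside the tri-snRNP, Prpf19, the ubiquitin ligase of the complex that activates the spliceosome, fell to 47.1 RPKM in NPC against 127 in ESC (-1.58 in the authors' deposited table). Prpf40b, a relative of the yeast U1 protein Prp40, rose to 14.9 RPKM in NPC against 5.74 in ESC (1.23 in the authors' deposited table, adjusted p = 0.000610). Prpf39, another U1-associated protein, fell to 35.1 RPKM in NPC against 55.7 in ESC. Of the U11/U12 snRNP, which reads the rare minor introns, Snrnp35 rose to 40.4 RPKM in NPC against 14.5 in ESC, the highest log2 fold change of all members (1.31 in the authors' deposited table). Snrnp48 of the same snRNP fell to 26.4 RPKM in NPC against 61.2 in ESC (-1.36 in the authors' deposited table), and Snrnp25 did not pass (36.3 RPKM in NPC and 45.0 in ESC).

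Lsm proteins form one ring around U6 RNA in the nucleus, Lsm2 to Lsm8, and another in the cytoplasm, in which Lsm1 takes the place of Lsm8 and which promotes mRNA decay. Of 13 Lsm genes 7 fell and 2 rose in the authors' deposited table, with a median of -0.87. In the U6 ring Lsm2 (15.6 RPKM in NPC and 45.6 in ESC), Lsm3 (186 in NPC and 480 in ESC) and Lsm4 (72.3 in NPC and 182 in ESC) fell, with log2 fold changes of -1.70, -1.52 and -1.48 in the authors' deposited table. Lsm5, Lsm6 and Lsm8 did not pass there, and Lsm8, the subunit particular to the U6 ring, was at 124 RPKM in NPC and 136 in ESC. Lsm7 had the lowest log2 fold change of the members (-2.29 in the authors' deposited table), at only 0.789 RPKM in NPC and 3.93 in ESC. Its intron RPKM, at 4.52 and 12.2 in NPC and 28.9 and 27.1 in ESC, was above its exon RPKM, as it also was for U2af1, so the exon levels of both are uncertain. Lsm10, which replaces an Sm subunit in the U7 snRNP of histone mRNA processing, rose to 27.2 RPKM in NPC against 12.1 in ESC (1.08 in the authors' deposited table, adjusted p = 0.0180). Lsm11, its U7 partner, was low at 3.05 RPKM in NPC and 2.23 in ESC and did not pass. Of the Lsm14 pair, which encode proteins of cytoplasmic P bodies, Lsm14b rose to 70.9 RPKM in NPC against 42.6 in ESC, and Lsm14a fell to 68.4 in NPC against 113 in ESC.

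Of the 11 SR proteins 8 fell in the authors' deposited table, with a median of -1.11, and none rose. Srsf2, known as SC35 and a marker of nuclear speckles, was at 90.9 RPKM in NPC and 319 in ESC (-1.95 in the authors' deposited table). Srsf1, a founding member of the SR family, fell to 329 RPKM in NPC against 629 in ESC (-1.11 in the authors' deposited table), while its closest relative Srsf9 was at 116 in NPC and 86.7 in ESC and did not pass. Srsf3 and Srsf7, the pair that also couples splicing to export, fell to 108 RPKM in NPC against 252 in ESC and to 106 in NPC against 235 in ESC. In the group of Srsf4, Srsf5 and Srsf6, Srsf6 fell to 177 RPKM in NPC against 385 in ESC and Srsf4 to 56.0 in NPC against 76.9 in ESC. Srsf5, the SR gene with the highest mean over both cell types, was at 499.5 RPKM in NPC and 495 in ESC and did not pass in the authors' deposited table (-0.12, adjusted p = 0.703). Srsf10, which represses splicing when dephosphorylated, fell to 25.5 RPKM in NPC against 54.1 in ESC, and its paralog Srsf12 was at 3.02 in NPC and 1.76 in ESC and did not pass.

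Of the 18 hnRNP genes with exon values 11 fell in the authors' deposited table, 7 did not pass and none rose, with a median of -0.66. Hnrnpab, the most abundant member of all, fell to 550.0 RPKM in NPC against 1171 in ESC (-1.26 in the authors' deposited table), and its relatives Hnrnpd and Hnrnpdl fell to 26.6 in NPC against 54.0 in ESC and to 161 in NPC against 320 in ESC. In the hnRNP H and F group, whose proteins bind runs of G, Hnrnpf had the lowest value of the role in the authors' deposited table (-1.79; 33.0 RPKM in NPC and 109 in ESC). Hnrnph1 fell less (499 RPKM in NPC and 636 in ESC, -0.52 in the authors' deposited table), and Hnrnph2 (196 in NPC and 185 in ESC) and Hnrnph3 (53.1 in NPC and 35.1 in ESC) did not pass. Of the hnRNP A group, Hnrnpa2b1 fell to 419 RPKM in NPC against 575 in ESC, and Hnrnpa0, at 180.1 in NPC and 118 in ESC, had the highest value of the role without passing in the authors' deposited table (0.45, adjusted p = 0.0826). Hnrnpa3 was at 10.5 RPKM in both, below its intron RPKM in 3 of the 4 replicates, so its exon level is uncertain. Hnrnpl fell to 185 RPKM in NPC against 316 in ESC, and its paralog Hnrnpll was at 19.2 in NPC and 14.8 in ESC and did not pass. Hnrnpu, the scaffold protein of chromatin and RNA, fell to 306 RPKM in NPC against 565 in ESC and Hnrnpul2 to 66.6 in NPC against 95.8 in ESC, while Hnrnpul1 was at 226 in NPC and 175 in ESC and did not pass.

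Introns stand for transcripts not yet spliced and for introns kept in the RNA. Their levels in these genes had a lower median difference than those of all genes, while the share of members called lower was close to that of all genes. With limma on log2(RPKM + 1), NPC minus ESC, over genes averaging 1 intron RPKM or more, 27 of the 84 tested members fell and 1 rose at an adjusted p of 0.05, and 37 had an unadjusted p under 0.05. The median of the members was -1.003. Of all 8811 tested genes 47.3% passed, 34.0% lower and 13.2% higher, with a median of -0.43. With every replicate centred on its median the members' median was -0.61 against -0.04 over all genes, with 30 members lower and 3 higher, and all genes then split into 24.6% lower and 24.8% higher. Without centring, over genes averaging 2 intron RPKM or more, the members' median was -1.004 against -0.69 over all such genes. Of 83 members 29 were then lower and 1 higher, against 40.8% and 9.12% of all such genes. P-values measure only the spread between these 2 and 2 biological replicates. In 64 of the 85 members both NPC replicates lay below both ESC replicates, in 3 both lay above, and in 18 the groups overlapped. The first of these patterns held for 55.5% and the second for 21.9% of all tested genes.

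The members' intron levels in NPC replicate 1 were low. They lay below NPC replicate 2 in 80 of 85 members, with a median ratio of replicate 2 over replicate 1 of 2.19, against 1.54 over all tested genes. Between the ESC replicates the same ratio was 1.07 in members and 1.01 over all tested genes. NPC replicate 1 was below both ESC replicates in 82 members, NPC replicate 2 was below both in 64 and above both in 16. Some members lay near the receptor-gene median of 0.747 intron RPKM in NPC replicate 1. Among them were Lsm11 (0.744), Sf3a2 (0.918), Snrnp40 (1.22), Snrpg (1.28), Lsm2 (1.39) and Prpf4 (1.56). The count of calls grew with either NPC replicate left out and shrank with either ESC replicate left out, in members and over all tested genes. Without NPC replicate 1 the members' median was -0.50, against -0.23 over all tested genes. Without NPC replicate 2 it was -1.54, against -0.61. Without ESC replicate 1 it was -1.02 against -0.45, and without ESC replicate 2 it was -0.98 against -0.42. Each such fit takes the lone sample to vary like the other cell type. Sf3a2, Lsm2, Snrnp40, Snrpg, Prpf4 and Lsm11 passed in all 4 of these fits, and all 28 called members kept their direction in each.

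**Figure D2:**
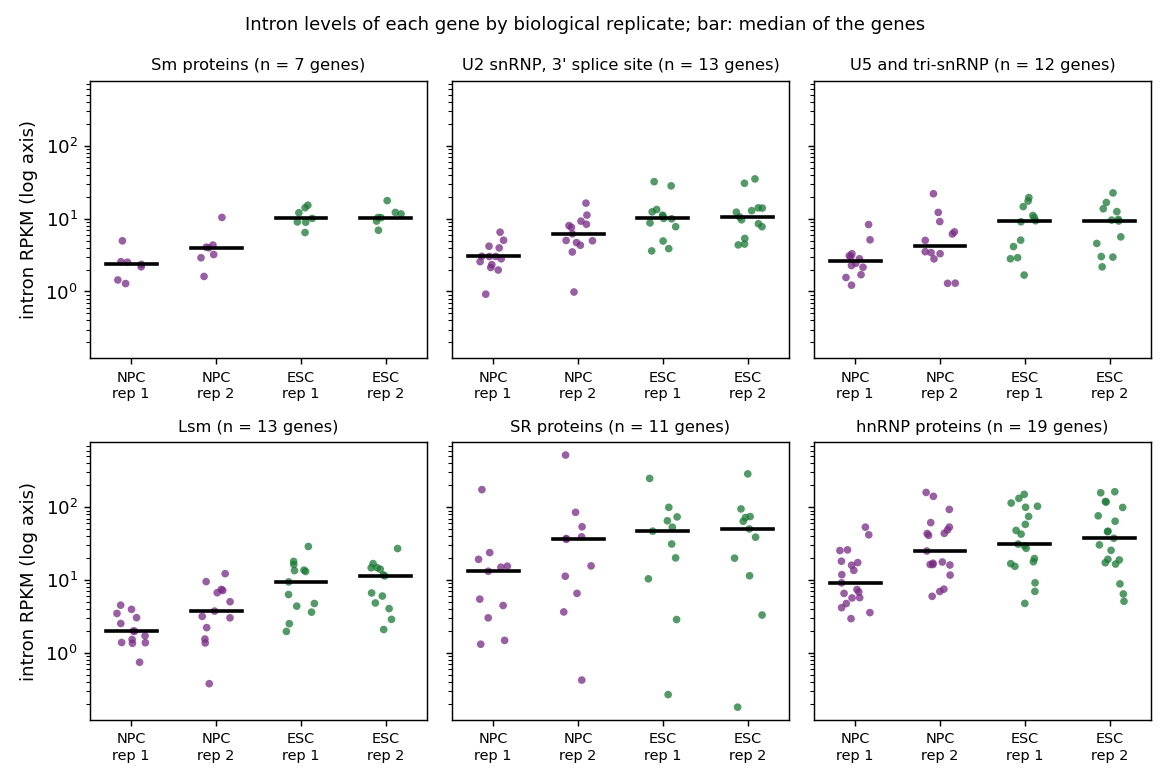
Each point is the intron level of a gene in RPKM on a log axis, in a panel for each of 6 roles, with the NPC replicates left of the ESC replicates and a bar at the median of the genes. In all 6 panels NPC replicate 1 has the lowest bar and the ESC replicates lie close together; for SR genes the bars are at 13.2 and 36.3 RPKM in NPC and 46.9 and 50.3 in ESC.

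The 28 intron calls took in 6 of 7 Sm genes and 8 of 13 Lsm genes, the genes of the rings and their relatives. Of all tested genes, 34.0% were called lower. Snrpd2 had 1.44 and 4.34 intron RPKM in NPC and 15.3 and 17.7 in ESC (limma log2 difference -2.28, SE 0.52, adjusted p = 0.00423). Snrpg had 1.28 and 1.61 intron RPKM in NPC and 6.45 and 6.93 in ESC (-1.66, SE 0.28, adjusted p = 0.000638). Replicates of a cell type lay close together for Snrpg. Its NPC values were not far above the receptor-gene median of 0.747 intron RPKM in NPC replicate 1. Both NPC replicates lay below both ESC replicates in all 7 Sm genes, and in 55.5% of all tested genes. Snrpd1, Snrpd3, Snrpe and Snrpf also fell, with log2 differences from -1.37 to -1.61, and Snrpe therefore passed in introns and not in exons. Lsm2 had 1.39 and 2.22 intron RPKM in NPC and 13.7 and 14.7 in ESC (-2.45, SE 0.41, adjusted p = 0.000615). Lsm1, Lsm3, Lsm4, Lsm5, Lsm6, Lsm11 and Lsm12 fell as well, with differences that ran from -0.54 for Lsm12 to -2.13 for Lsm4. Lsm5, Lsm6 and Lsm11 did not pass in the exons, and Lsm6 had 1.72 and 3.03 intron RPKM in NPC and 9.43 and 11.4 in ESC. Without NPC replicate 1, 6 Sm genes and 11 Lsm genes were lower and Lsm14b was higher, without NPC replicate 2 all 7 and all 13 were lower, and leaving out either ESC replicate left 1 Sm gene and 2 Lsm genes called.

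Among the U2 factors Sf3b3, an SF3b scaffold subunit without an exon value, had the lowest intron difference of all members: 3.02 and 6.20 RPKM in NPC and 32.2 and 35.1 in ESC (-2.69, SE 0.66, adjusted p = 0.00619). Sf3a2 had 0.918 and 0.982 intron RPKM in NPC and 3.88 and 5.35 in ESC (-1.51, SE 0.22, adjusted p = 0.000284), from 23 to 157 reads. Sf3a3 (-1.23) and Snrpa1 (-1.33) also fell, which makes 4 of 13, a share near the 34.0% of all tested genes. Of the 13, 12 had both NPC replicates below both ESC replicates, against 55.5% of all tested genes. The count of calls among the U2 factors grew with either NPC replicate left out and shrank with either ESC replicate left out. U2af1l4, a U2AF paralog, overlapped between the groups with 6.52 and 16.3 intron RPKM in NPC and 10.1 and 14.0 in ESC. None of the 3 U1 genes passed. Without NPC replicate 1 the log2 difference was -0.465 for Snrpa, -0.464 for Snrpc and 0.42 for Snrnp70, against a median of -0.23 over all tested genes. Without NPC replicate 2 it was -1.35, -0.85 and -0.94 for the same genes in that order, against -0.61.

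In the tri-snRNP, Snrnp40 had 1.22 and 1.30 intron RPKM in NPC and 4.13 and 4.56 in ESC (-1.24, SE 0.22, adjusted p = 0.000954), and Prpf4, the U4/U6 partner of Prpf3, 1.56 and 1.29 in NPC and 5.07 and 5.62 in ESC (-1.39, SE 0.25, adjusted p = 0.00103). Prpf3 and Prpf8 fell too (-1.41 and -1.50), which makes 4 of 12, again near the 34.0% of all tested genes. Here too the count grew with either NPC replicate left out and shrank with either ESC replicate left out. Of the remaining Prpf genes Prpf19 fell, with 2.11 and 3.04 intron RPKM in NPC and 13.1 and 13.8 in ESC. The minor spliceosome genes again went apart. Snrnp35 had 2.01 and 3.93 intron RPKM in NPC and 1.16 and 1.59 in ESC, the sole intron call that was higher (0.70, SE 0.25, adjusted p = 0.0374 by limma). The receptor-gene median was 0.747 in NPC replicate 1. Snrnp35 did not pass without NPC replicate 2 (log2 difference 0.35) or without either ESC replicate. Nor did it pass with the receptor-gene background subtracted, with no filter or with no mean-variance trend, where 5.77%, 1.21% and 8.55% of all genes were called higher. Snrnp48 had 1.72 and 1.70 intron RPKM in NPC and 7.08 and 8.24 in ESC (-1.67, SE 0.31, adjusted p = 0.00118).

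SR and hnRNP genes had the highest median intron levels of the roles and few intron calls, where 34.0% of all tested genes were called lower. Only Srsf10 of 10 SR genes fell, with 4.47 and 11.3 intron RPKM in NPC and 31.2 and 38.8 in ESC (-2.13, SE 0.74, adjusted p = 0.0332). Only Hnrnpf (5.68 and 16.3 in NPC and 58.1 and 64.3 in ESC) and Hnrnpul2 (4.17 and 6.97 in NPC and 19.7 and 18.9 in ESC) of 19 hnRNP genes fell (-2.53 and -1.66). The counts of both families grew with either NPC replicate left out and shrank with either ESC replicate left out. Both NPC replicates lay below both ESC replicates in 7 of 11 SR and 14 of 19 hnRNP genes, and in 55.5% of all tested genes. Srsf2 had 15.5 and 36.3 intron RPKM in NPC and 99.6 and 94.8 in ESC and did not pass (-1.98, SE 0.85, adjusted p = 0.0733). Srsf5 had the highest intron level of all members, 174 and 521 RPKM in NPC and 249 and 287 in ESC, with the NPC replicates on either side of the ESC replicates (0.17, SE 0.61, adjusted p = 0.827). Srsf1 likewise straddled, with 19.2 and 85.1 intron RPKM in NPC and 53.2 and 64.1 in ESC. Without NPC replicate 1 the log2 difference of Srsf5 was 0.96 and without NPC replicate 2 it was -0.61. Hnrnpa1 and Hnrnpk, without exon values, had 13.6 and 43.8 intron RPKM in NPC against 99.8 and 99.3 in ESC, and 11.9 and 41.1 in NPC against 42.7 and 46.1 in ESC, and neither passed. Srsf12 was the 1 member under the intron filter, with 1.31 and 0.423 RPKM in NPC and 0.267 and 0.180 in ESC.

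Exon and intron calls opposed each other in none of the 80 members tested in both with all replicates in the fit. Without NPC replicate 2, introns of Lsm10 (-1.49, adjusted p = 0.00657 by limma) and Lsm14b (-0.68, adjusted p = 0.00685) were lower while their exons were higher. With all replicates, in 22 both were lower, in 34 exons alone were lower, in 4 introns alone were lower (Snrpe, Lsm5, Lsm6 and Lsm11), in Snrnp35 both were higher, in 3 exons alone were higher, and 16 had neither call. The intron call of Snrnp35 was lost with the receptor-gene background subtracted. The exon values come from the same libraries, so the tables are not independent. Such counts were not made over all genes, so it is unknown whether they are particular to these members.

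**Figure D3:**
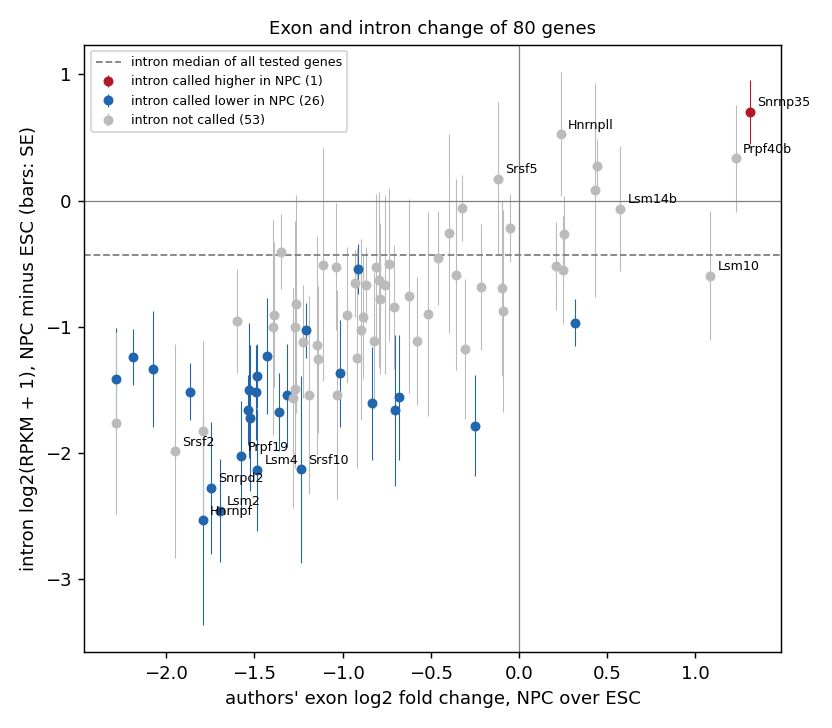
The authors' exon log2 fold change (NPC over ESC) is plotted against the intron difference in log2(RPKM + 1) (NPC minus ESC, bars 1 SE) for the 80 genes tested in both; colours mark the limma call on introns and the dashed line the intron median of all tested genes. Most points lie in the lower left, Snrnp35 is the 1 red point in the upper right, where a few uncalled genes such as Prpf40b and Hnrnpll also lie, and many uncalled genes have longer SE bars than most called genes.

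The intron level relative to the exon level was compared over genes averaging 10 exon RPKM or more, with the same pooled exon value under both replicates of a cell type. Intron and exon RPKM have different denominators, so the ratio serves only to set genes or replicates side by side. It had a median over the 75 members of 5.48% and 11.7% in NPC replicates 1 and 2, and of 10.9% and 11.7% in the ESC replicates. The median over all 7814 genes was 5.65% and 7.67% in NPC and 9.43% and 9.20% in ESC. SR genes had 12.9% and 32.5% in NPC and 19.6% and 19.9% in ESC, and hnRNP genes 8.37% and 28.3% in NPC and 20.8% and 24.1% in ESC. For both families the NPC replicates lay on either side of the ESC replicates, as they did for the Sm, U1 and U2 genes and the Prpf genes outside the tri-snRNP. Srsf5 stood highest of the SR genes in NPC replicate 2, at 34.9% and 104.2% in NPC and 50.2% and 58.0% in ESC. Lsm genes had 3.22% and 5.87% in NPC and 12.2% and 12.3% in ESC, below ESC in both NPC replicates. The U11/U12 genes (6.51% and 9.71% in NPC, 11.3% and 13.2% in ESC) and the median over all genes had the same order.

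**Figure D4:**
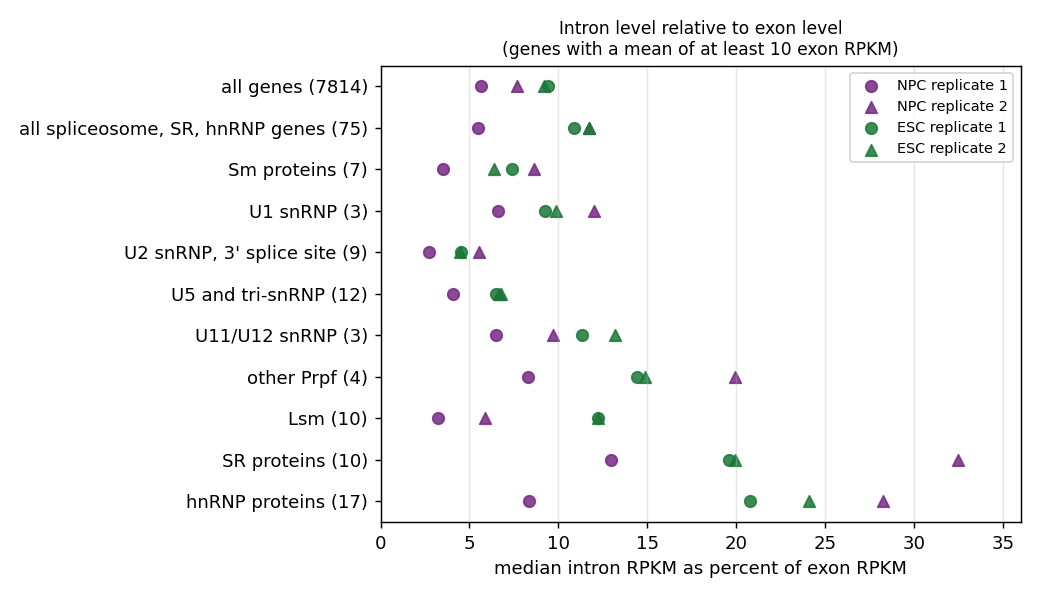
Each row is a role, with all genes and all members at the top and the number of genes in brackets; points give the median intron RPKM as a percent of the pooled exon RPKM in each replicate. The SR and hnRNP rows lie farthest right and have the widest gap between the NPC replicates, from 12.9% to 32.5% and from 8.37% to 28.3%.

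Other genes of the splicing machinery were taken from 9 lists, of which 78 genes were tested for exons. By the authors' deposited table, 54 fell and 5 rose, with a median of -1.14. In introns 32 of 79 fell and 1, Srpk2, rose, where 34.0% of all tested genes fell and 13.2% rose. Of the genes that assemble Sm rings 10 of 12 fell and 1 rose in the authors' deposited table (median -1.43). Wdr77, which with the methyltransferase Prmt5 modifies Sm proteins, was at 15.5 RPKM in NPC and 117 in ESC (-3.06 in the authors' deposited table), and Gemin8, of the SMN complex, rose to 8.91 in NPC against 3.62 in ESC. The exon junction complex had 4 of 5 lower (median -1.36; lowest Magoh, 179 RPKM in NPC and 618 in ESC, highest Casc3, not called), and the helicases with the GTPase Eftud2 8 of 10 (-1.31; Dhx16 lowest, Ddx39b highest). Branch-site and U2 accessory genes had 6 of 7 lower (-1.37; Puf60 highest), the Prp19 complex 9 of 14 (-0.95; Cdc5l lowest, Snw1 highest), and SR-related proteins 6 of 7 (-0.89; Pnn lowest, Son highest), with none higher in these 5 lists. Second-step and tri-snRNP genes had 6 of 10 lower and Txnl4b higher (-1.32; Nhp2l1 lowest), all by the authors' deposited table.

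Minor spliceosome genes and SR protein kinases were mixed. Of 5 minor spliceosome genes 2 fell (Pdcd7 lowest, and Zrsr2) and Zcrb1 rose in the authors' deposited table, with a median of 0.49. Of 8 genes for SR protein kinases and SR import 3 fell and 2 rose, with a median of 0.04 in the authors' deposited table. The 2 main SR protein kinases went opposite ways: Srpk1 fell to 43.6 RPKM in NPC against 121 in ESC (-1.60 in the authors' deposited table), and Srpk2 rose to 87.8 in NPC against 19.0 in ESC (2.06). The introns of both also passed in limma, with log2 differences of -1.36 (SE 0.29) and 0.83 (SE 0.19).

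Marker genes matched the labels. The 6 ESC markers, among them Pou5f1 and Nanog, summed to 12.6 RPKM in NPC and 5484 in ESC, and the 6 tested NPC markers to 14579 in NPC and 462 in ESC. Of other cell types, 3 of 6 tested neuron markers were higher and 3 lower in NPC (all 8 listed summed to 436 RPKM in NPC and 276 in ESC), 4 of 5 astrocyte markers were higher (503 in NPC and 4.89 in ESC), and 2 of 3 tested oligodendrocyte lineage markers were higher (all 6 listed summed to 270 in NPC and 17.1 in ESC). Fibroblast markers, 5 of 8 lower in NPC, summed to 9.91 RPKM in NPC and 31.9 in ESC. None of these markers was at 0 in either cell type, and their part in the splicing gene values was not tested.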

How the data were processed

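Total RNA without ribosomal RNA was sequenced as 50 bp single ends in 8 libraries, per the labels. The authors deposited 2 tables. The exon table gives, per the file headers, log2 fold changes (NPC over ESC), adjusted p-values and RPKM that the authors pooled per cell type. The submitters' processing notes name DESeq2 1.10.0 and mouse build mm9. For aligner, counter, annotation and strand use, the sources used here name nothing. The intron table gives deposited values per biological replicate, whose RPKM unit was inferred from the values. All 18393 genes above 0 could be turned back into whole reads (intron length whole within 0.001, smallest solution), which served only to describe depth. For 6 members another multiple of the reads fitted too. Rows with no gene name (84 exon, 64 intron) were left out.

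Exon calls were read as deposited. Introns were tested with limma 3.58.1 (R 4.3.3, mean-variance trend) on log2(RPKM + 1), which understates changes of low genes, for a mean of at least 1 RPKM with Benjamini-Hochberg adjustment at 0.05. The limma fit was also run on simulated data with large changes and equal spread in all samples. That run cannot speak for smaller changes or for the low NPC replicate 1. Alternatives varied the filter, pseudocount, scaling, background, threshold, trend, replicate block and replicates used. In each role the genes with the highest and lowest exon change, the most abundant gene, genes called against the majority, all intron calls and paralog groups were named. A few genes that this rule names are not reported here. Members and lists were chosen with earlier results of these data known.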

Additional observations from a re-analysis of the deposited data

How the results depend on the processing

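Exon counts and the exon median stayed within 1.5 times or 0.1 of their values under the alternatives, except that 2 members were higher at an adjusted p of 0.01 in the authors' deposited table and the median was -0.77 with the log2 ratio of the authors' RPKM. With a log2 fold change of at least 1 also required, 39 members were lower and 3 higher. Over all tested genes 27.0% were then lower and 27.1% higher. The log2 RPKM ratio exceeds the deposited fold change by a median of 0.14 over 10273 genes. Intron calls numbered 10 with no filter on low values (10 lower, 0 higher), where 5.04% of all genes were lower and 1.21% higher. They numbered 18 with the receptor-gene background subtracted (0 higher), where 25.2% of all genes were lower and 5.77% higher. Centring gave 3 higher and no trend 0 higher, against 24.8% and 8.55% of all genes. With a replicate left out the calls ranged from 6 to 79 (lower 6 to 79, higher 0 to 7), and the median from -1.54 to -0.50. The replicate block gave 19 calls, 18 lower and 1 higher, against 29.9% lower and 13.0% higher over all genes. Deviations of samples with the same number had a correlation of 0.0190 over genes. Because NPC replicate 1 stands apart, this value cannot show whether samples with the same number share more than that number. The main fit used no pairing.

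Of the named genes, 5 (Sf3a2, Lsm2, Snrnp40, Snrpg and Prpf4) passed in introns under all 11 alternatives. Over all members, 18 genes changed direction in 1 or both tables under some alternative, none of them called in the table concerned. With the RPKM ratio, exon values were 0.0063 for Hnrnpa3, 0.088 for Hnrnph2, 0.092 for Prpf18 and 0.013 for Srsf5. Intron differences without NPC replicate 1 were 0.029 for Hnrnpa2b1, 0.80 for Hnrnph3, 1.097 for Hnrnpll, 0.30 for Lsm10, 0.55 for Lsm14b, 0.12 for Prpf18, 0.066 for Prpf38b, 0.064 for Prpf39, 0.92 for Prpf40b, 0.048 for Prpf4b, 0.18 for Prpf6, 0.42 for Snrnp70, 0.53 for Srsf1, 0.96 for Srsf5, 0.19 for Srsf9 and 0.43 for U2af1l4. Without NPC replicate 2 they were -1.54, -0.64, -0.043, -1.49, -0.68, -0.55, -1.24, -1.12, -0.25, -1.06, -0.30, -0.94, -1.55, -0.61, -0.72 and -0.78 for the same genes in that order. Without ESC replicate 2 they were -0.017 for Hnrnph3 and 0.042 for U2af1l4. Centred, they were 0.33 for Lsm14b, 0.18 for Prpf18, 0.34 for Prpf6, 0.14 for Snrnp70, 0.13 for Srsf9 and 0.22 for U2af1l4. The cause was not tested. The intron test rests on 2 replicates per cell type, of which NPC replicate 1 was low, and exon levels have no replicate values.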
